A study of Nothobranchius furzeri with 39 samples.

Results

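The genes described are odc1, mat2a and mat2al of Nothobranchius furzeri, the turquoise killifish, which is kept for ageing research because of its short life. They were taken by name, not chosen by a cutoff on any value (mat2al is listed as LOC107374806) and are 3 of the 25099 genes in the largest count table. All 3 are in the table of the 2-month fish, and mat2al is also in both tables of 3-month fish. The names themselves were selected on measured values: odc1 was among the genes named as higher in livers of double mutants than of wild type (WT) in an earlier pass through these data, and how the other genes were picked is not recorded. Differences of these 3 genes between genotypes in the 2-month livers are therefore given as a description, with no test, and tests of sex in those livers are not independent of a choice made with these libraries in view.

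RNA with a polyA tail was sequenced from 37 libraries analysed here. Fish labelled WT, ATM mutant and ATMcGAS double mutant gave brain and liver at 2 months of age. Each genotype and tissue had 2 males and 2 females, but the livers of atm mutants analysed here came from 1 male and 2 females. Fish labelled Blm1 mutant (3 males) and WT (4 males) gave livers at 3 months, and fish labelled cGAS mutant (3 females and 2 males) and WT (1 female and 1 male) gave brains at 3 months. The kinase ATM answers DNA breaks, the helicase BLM is mutated in Bloom syndrome, and cGAS is a sensor of DNA in the cytosol. The labels give the fish's genotype but no allele, no strain and no statement of whether littermates were used, and p-values measure only the spread between these fish.

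Polyamines are small charged molecules that growing cells need for translation and for the stability of nucleic acids. Ornithine decarboxylase, the product of odc1, makes putrescine in the first committed step of their synthesis, and antizymes mark the enzyme for breakdown when polyamines are plentiful. Methionine adenosyltransferases make S-adenosylmethionine (SAM), the methyl donor of the cell, which after decarboxylation also gives the aminopropyl groups of spermidine and spermine. In mammals, the mat1a enzyme is the form of the adult liver, and the mat2a enzyme serves most other tissues and rises in growing or damaged liver. The files pair the symbol mat2a with no identifier. In RefSeq's gene list for NfurGRZ-RIMD1, LOC107374806 has the symbol mat2al, and LOC107372920 has the symbol mat2aa. That second gene is described below as a further gene of the family.

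Depth and sample facts bear on all values. Libraries of the 2-month fish held 18.63 to 39.28 M (1000000) counts in brain and 25 to 36.82 M in liver, and the partial 3-month tables held 19.5 to 24.09 M in liver and 11 to 17.28 M in brain. The summed level of 16 liver markers was 62395 to 234197 CPM (counts per 1000000, scaled by the trimmed mean of M values, TMM) in 2-month livers and 1807 to 3233 CPM in 2-month brains, and 16 brain markers summed to 2.47 to 9.54 CPM in those livers. In 2-month brains the mutated gene atm ranged over 27.4 to 37 CPM for WT, 21.5 to 23.6 CPM for atm mutants and 19 to 27.1 CPM for double mutants. In 3-month livers, blm was at 4.87 to 6.99 CPM in Blm1 mutants and 6.86 to 10.3 in WT, and in 3-month brains cgas had 8 to 18 counts in mutants and 19 and 282 in WT. The fish labelled double mutant 4 stood apart: cgas had 212 counts in its liver and 131 in its brain, where other double mutants had 0 to 1 and 5 to 9. Low counts do not mark the mutation, since cgas had 0 to 271 counts in WT livers, 2 to 3 in atm mutant livers, 8 to 14 in WT brains and 6 to 13 in atm mutant brains. Its sum of 16 leukocyte markers was the highest of the 2-month livers (487 CPM, lowest 20.4) and of the 2-month brains (464 CPM). Fitted values of the 3 genes in comparisons that hold this fish are given with and without it. In these bulk samples, fewer cells of a type and less RNA per cell cannot be told apart.

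Liver odc1 was low in WT, higher in 2 of 3 atm mutants and highest in double mutants. In WT it was counted at 6.97 and 2.49 CPM in males 1 and 2 and at 7.96 and 4.65 CPM in females 3 and 4. In atm mutants, odc1 stood at 19.5 and 19 CPM in females 1 and 2 and at 7.92 CPM in male 4. In double mutants, odc1 reached 136 and 248 CPM in females 2 and 3 and 35.9 and 31.2 CPM in males 1 and 4. Every double-mutant liver was above every WT liver and above every atm mutant liver, while the atm mutant male lay within the WT range. On plain totals that male was at 7.94 CPM and WT livers at 2.7 to 7.79 CPM, so this overlap depends on the scaling. The order of the group means was double mutants at 113 ± 102 CPM (SD, n = 4), atm mutants at 15.5 ± 6.55 (SD, n = 3) and WT at 5.52 ± 2.45 (SD, n = 4). The neighbours atm mutant and WT overlapped on the TMM scale.

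The fitted log2 fold change of liver odc1, with sex as a covariate, was 3.86 (SE 0.516) for double mutants against WT, 2.84 (SE 0.536) for double mutants against atm mutants and 1.03 (SE 0.504) for atm mutants against WT. These comparisons share libraries. Separation of this kind, with all double mutants higher, was found for 4.09% of the 16174 genes against WT and for 6.67% against atm mutants, and 0.662% of these genes passed the threshold of an adjusted p under 0.05 against WT. Since odc1 was named from this contrast, nothing is read from those shares. Without double mutant 4, the log2 fold change was 4.16 against WT and 3.05 against atm mutants. Within double mutants, females averaged 192 CPM and males 33.6 CPM (n = 2 each), with no overlap, and whether the effect of the genotype differs between the sexes was not tested. The share of all genes that separate likewise within double mutants was not counted, and nothing is read from this separation. The brains with the same sample numbers as the 2 double-mutant females were also the highest for odc1, as described below.

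**Figure D1:**
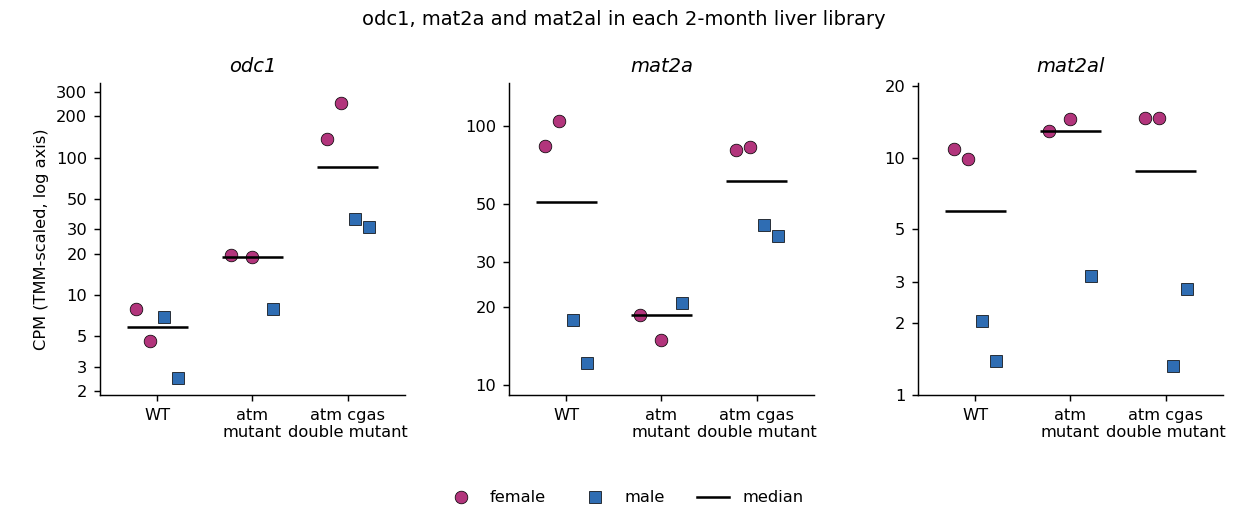
TMM-scaled CPM (log axis) of odc1, mat2a and mat2al in each 2-month liver, by genotype; circles are females, squares are males and lines are group medians. Double mutants are highest for odc1 (31.2 to 248 CPM), atm mutants are low for mat2a (15 to 20.7 CPM), and all females lie above all males for mat2al.

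Liver mat2a followed another order. WT males 1 and 2 had 17.9 and 12.2 CPM, and WT females 3 and 4 had 84.2 and 105 CPM. The atm mutants had 18.7 and 15 CPM in females 1 and 2 and 20.7 CPM in male 4, so that all lay close to the WT males, whatever their sex. Double mutants had 41.7 and 37.9 CPM in males 1 and 4 and 81.3 and 83.4 CPM in females 2 and 3. In WT and double mutants, each female was thus above each male, and in atm mutants the male was above both females. With 2 fish or fewer per sex and genotype, this order is given as a description. The share of all genes with such an order was not counted.

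Group means of mat2a in liver were 61.1 ± 24.6 CPM for double mutants (SD, n = 4), 54.9 ± 46.9 for WT (SD, n = 4) and 18.1 ± 2.91 for atm mutants (SD, n = 3). The WT range covered the ranges of both other groups, while every double mutant was above every atm mutant. Of all 16174 genes, 6.67% were likewise higher in every double mutant than in every atm mutant, and nothing is read from that share. The log2 fold change was 1.70 (SE 0.523) for double mutants against atm mutants, -1.29 (SE 0.529) for atm mutants against WT and 0.41 (SE 0.471) for double mutants against WT. Without atm mutant 4, the only male of its group, these values became 2.75 for double mutants against atm mutants and -2.17 for atm mutants against WT. Omitting double mutant 4 gave 1.69 against atm mutants and 0.41 against WT. Double-mutant females lay below WT females on the TMM scale but above them on plain totals (92.4 and 98.1 against 60 and 68.6 CPM), so the order of these female groups depends on the scaling. TMM factors of these WT females were 0.714 and 0.65, the lowest of the 2-month livers. On plain totals the median log2 fold change of all genes, double mutants against WT over both sexes, moved from 0.00 to 0.48.

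The vitellogenin programme of egg yolk differed between the same females. The summed level of 3 yolk markers was 52847 to 65049 CPM in WT females, 2100 to 7798 CPM in atm mutant females and 86.2 to 3856 CPM in double-mutant females, against 62.3 to 81.7 CPM in males. Double-mutant females thus held mat2a at 81.3 and 83.4 CPM with yolk markers below those of WT females, and atm mutant females held it at 15 and 18.7 CPM. The part of yolk production in the level of mat2a was not tested.

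Liver mat2al separated by sex. The genotypes overlapped with both sexes pooled, but among females double mutants were above atm mutants and these above WT, without overlap. Females had 10.9 and 9.82 CPM in WT, 12.9 and 14.6 CPM in atm mutants and 14.7 CPM in each double mutant. On plain totals the females kept this order, at 7.8 and 6.39 CPM, 12.5 and 13.7 CPM, and 16.7 and 17.3 CPM. The median log2 fold change of all genes, over both sexes, also rose on that scale. It was 0.48 for double mutants against WT and 0.22 for atm mutants against WT, beside 0.00 and -0.02 with TMM factors. With 2 females per genotype, the order is given as a description. The share of all genes with such an order was not counted, and nothing is read from it. Males had 2.04 and 1.39 CPM in WT, 3.18 CPM in the atm mutant and 1.33 and 2.79 CPM in double mutants, from 40 to 137 counts per library. All 6 females lay above all 5 males in every genotype, at 12.9 ± 2.13 CPM (SD, n = 6) against 2.14 ± 0.829 (SD, n = 5).

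The male against female log2 fold change of mat2al was -2.57 (SE 0.218), 5.92-fold lower in males, with an adjusted p of 0.00102 by edgeR's quasi-likelihood test over 15456 genes. In that comparison 2.84% of genes passed the threshold and 1.76% were lower in all males than in all females. By exact permutation, two-sided, p was 0.00433, the smallest it can give with 5 against 6 libraries, and 0.0736 after Benjamini-Hochberg adjustment over 17 such tests. Under every omission of 1 liver, the value stayed between -2.72 and -2.40, with edgeR adjusted p from 0.000373 to 0.00648, and without double mutant 4 it was -2.69. Both double-mutant females, with yolk sums of 86.2 and 3856 CPM, held mat2al at 14.7 CPM, above both WT females. The part of yolk production in the level of mat2al was not tested.

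Neither odc1 nor mat2a passed the same test of sex in liver, so that 1 of 3 genes was called. For odc1 the log2 fold change of males against females was -1.46 (SE 0.42), with an adjusted p of 0.092 by edgeR. For mat2a it was -1.26 (SE 0.417), with an adjusted p of 0.132. DESeq2's Wald test called both, with adjusted p of 0.00547 for odc1 and 0.0227 for mat2a. It also called 985 genes higher and 839 lower in males, of 17740, many more than edgeR did. Leaving out WT male 1 gave odc1 a value of -1.84 (edgeR adjusted p = 0.026), and leaving out atm mutant male 4 gave mat2a -1.86 (edgeR adjusted p = 0.0294). Omitting double mutant 4 gave -1.24 for odc1 and -1.28 for mat2a. Between genotypes, the liver log2 fold change of mat2al was 0.54 (SE 0.256) for atm mutants against WT, 0.37 (SE 0.238) for double mutants against WT and -0.16 (SE 0.253) for double mutants against atm mutants, and the ranges of both sexes together overlapped in all of them. Without double mutant 4, the values of double mutants were 0.25 against WT and -0.27 against atm mutants. On plain totals the value against atm mutants turned to 0.12, while the median of all genes moved from 0.04 to 0.27. For atm mutants against WT on the TMM scale, 0 of 3 genes had ranges that did not overlap, where 7.75% of the 16174 genes had none. On plain totals the ranges of odc1 did not overlap, but the median of all genes moved from -0.02 to 0.22. The share of all genes without overlap was not counted on that scale.

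The neighbours of mat2al in the table bear on its counts, since strand and counting program are not given in the sources used here. LOC107374804, the next gene in the table, is placed overlapping mat2al in the assembly NfurGRZ-RIMD1. It had 22 to 2869 counts per liver and a fitted value of males against females of 2.87 on the log2 scale (SE 0.774, edgeR adjusted p = 0.0781), opposite in sign to mat2al. Reads of near-identical copies, such as those of a gene family, could not be assigned with certainty.

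In the 2-month brain, the level of odc1 varied between fish with no difference between genotypes past the threshold. WT brains had 46.8 and 21 CPM in males 1 and 2 and 33.9 and 28.8 CPM in females 3 and 4. In atm mutants, odc1 was at 28.2 and 28.8 CPM in females 1 and 2 and at 41.4 and 44 CPM in males 3 and 4. Double mutants had 57.5 and 49.1 CPM in females 2 and 3 and 26.9 and 16.4 CPM in males 1 and 4. In double mutants the females were above the males, in atm mutants the males were above the females, and in WT the sexes overlapped. With 2 fish per sex and genotype, these orders are descriptions, and the share of all genes with such orders was not counted.

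Brain mat2a had similar means in the genotypes, WT at 130 ± 23.2 CPM, atm mutants at 124 ± 11 and double mutants at 130 ± 18.5 (SD, n = 4 each). Single brains ranged from 102 CPM in double mutant 1 to 163 CPM in WT male 1. The brain of WT male 1 also had the highest sum of 11 stellate and endothelial markers, 3787 CPM beside a median of 424 CPM. Without this brain, atm mutants against WT gave 0.06 for mat2a (-0.07 with it) and 0.49 for odc1 (0.14 with it). The part of these markers was not tested. Brain mat2al, from 77 to 171 counts, stood at 4.28 ± 0.218 CPM for WT, 5.01 ± 0.688 for atm mutants and 4.76 ± 0.406 for double mutants (SD, n = 4 each). Its ranges overlapped in every pair of genotypes.

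**Figure D2:**
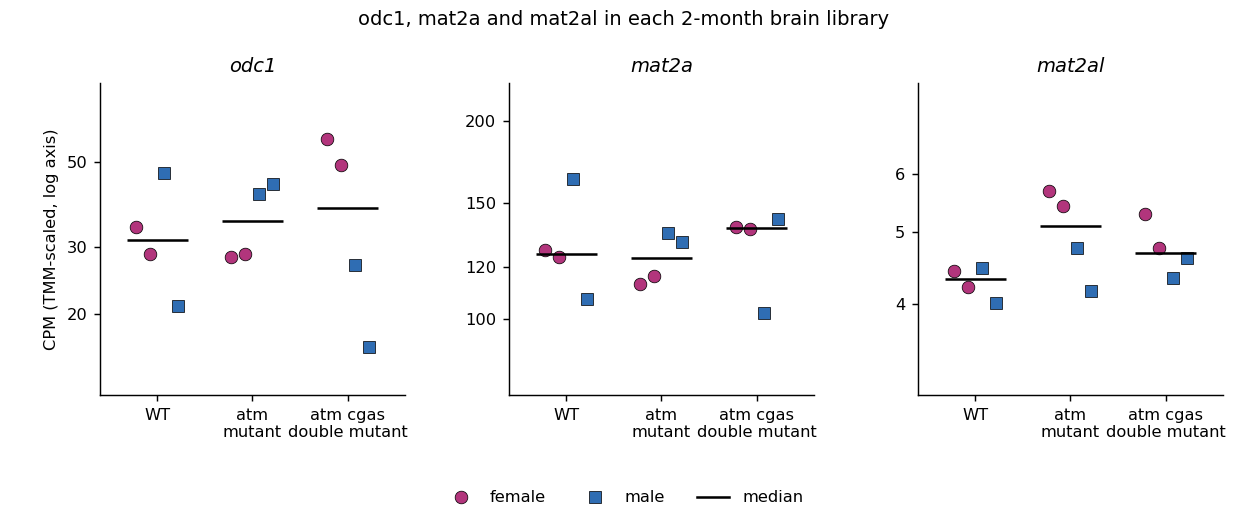
TMM-scaled CPM (log axis) of odc1, mat2a and mat2al in each 2-month brain, by genotype; circles are females, squares are males and lines are group medians. The genotypes overlap for all 3 genes, and the female double mutants are the highest 2 brains for odc1 (49.1 and 57.5 CPM).

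With edgeR over 20273 genes, 0 of 3 genes passed in atm mutants against WT, where 0.00987% of all genes did, in double mutants against WT (0.00493%) and in double mutants against atm mutants (0%). None had an unadjusted p under 0.05, and DESeq2 called none. For odc1 the log2 fold change was 0.14 (approximate 95% interval -0.63 to 0.91) in atm mutants and 0.16 (-0.62 to 0.94) in double mutants, both against WT. These intervals rest on the normal distribution and are too narrow for so few fish. Between double mutants and atm mutants, odc1 had a value of 0.02 (-0.77 to 0.81). Without double mutant 4, odc1 in double mutants was at 0.46 against WT and 0.34 against atm mutants. For mat2a the intervals were narrower, from -0.33 to 0.19 in atm mutants and from -0.26 to 0.25 in double mutants. For mat2al they ran from -0.02 to 0.46 and from -0.09 to 0.39. Without double mutant 4, the values in double mutants against WT were -0.05 for mat2a (-0.01 with it) and 0.13 for mat2al (0.15 with it). Against atm mutants they were 0.02 for mat2a (0.07 with it) and -0.09 for mat2al (-0.07 with it). The brains fell into libraries under and over 25 M counts, and with that range as a covariate 0 of the 3 genes passed in any of these comparisons. Too few brains of a genotype remained within a range for a test of their own.

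Sex did not pass for any of the 3 genes in brain, where 0.00503% of 19883 genes did. For mat2al, females had 4.97 ± 0.589 CPM (SD, n = 6) and males 4.39 ± 0.284 (SD, n = 6), males against females giving -0.16 on the log2 scale (SE 0.0995, edgeR adjusted p = 0.595). The values were -0.18 (SE 0.328) for odc1 and 0.06 (SE 0.107) for mat2a, with edgeR adjusted p of 0.847 and 0.849. Without double mutant 4, the direction of odc1 turned (0.06, edgeR adjusted p = 0.94), and mat2a and mat2al were at 0.03 and -0.17. The effect of sex on mat2al differed between the tissues. Males against females, liver minus brain, gave -2.35 (SE 0.223) on the log2 scale, with an adjusted p of 1.7e-05 by edgeR over 21597 genes, where 4.23% passed. This comparison was added after the values had been seen. It gave -2.38 (edgeR adjusted p = 0.00271) with the fish as a block, same-numbered brain and liver being taken as 1 fish. Without double mutant 4 it gave -2.45. The same difference was -1.23 (SE 0.543, edgeR adjusted p = 0.186) for odc1 and -1.27 (SE 0.418, adjusted p = 0.0884) for mat2a, or -1.26 and -1.25 without double mutant 4.

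**Figure D3:**
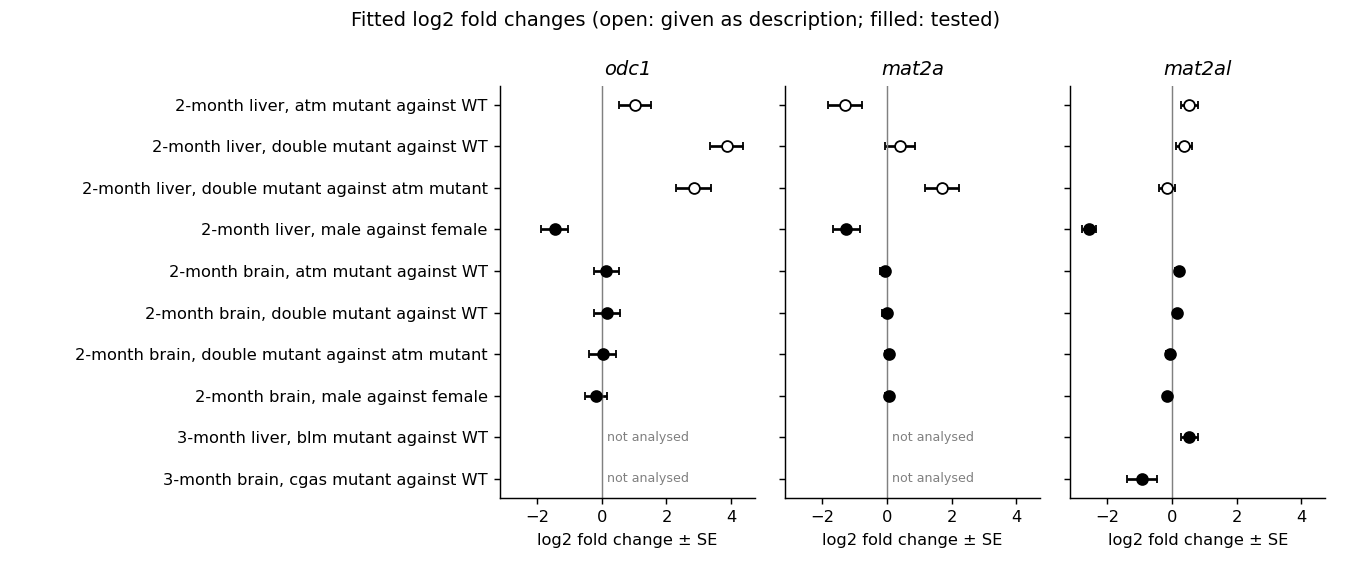
Fitted log2 fold changes with their SE (bars) for odc1, mat2a and mat2al in 10 comparisons; open points are descriptions of the contrasts that led to the choice of genes and filled points were tested. The values farthest from 0 are those of odc1 in double-mutant livers (3.86 and 2.84) and of mat2al between male and female livers (-2.57).

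The order of the tissues in WT fish depended on the scaling. With TMM factors fitted over both tissues, mat2al was lower in brain than in liver (log2 fold change -1.87, SE 0.521, edgeR adjusted p = 0.011), odc1 had a value of 0.74 (SE 0.379, adjusted p = 0.106) and mat2a of -0.06 (SE 0.576, adjusted p = 0.933). So 1 of 3 genes was called, where 76.1% of 19757 genes were. Sex was a covariate, but the fit took the tissue difference to be the same in both sexes. Scaled within the liver, mat2a was at 17.9 and 12.2 CPM in WT males and at 84.2 and 105 CPM in WT females. Its value of -0.06 therefore averages sexes that differ and is not an equal level in each. Same-numbered brains and livers were taken as 1 fish, and with the fish as a block odc1 passed (0.79, edgeR adjusted p = 0.00996). So did 8166 genes higher and 6176 lower in brain, of 19757. On plain totals the median of all genes moved from 0.24 to 2.27, and the values became 0.20 for mat2al, 2.76 for odc1 and 1.99 for mat2a. Relative to that median, mat2al was below and odc1 was above it on both scales. On plain totals WT males had more mat2al in brain (4.55 and 4.06 CPM) than in liver (2.27 and 1.5). WT females had less in brain (4.35 and 4.16 CPM) than in liver (7.8 and 6.39). Leaving out WT brain 4 gave mat2al -1.46, and over the omissions of 1 library the highest edgeR adjusted p of mat2al was 0.0505.

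Over the 12 brains, log2 CPM of odc1 and mat2a had a Pearson r of 0.49 (permutation p = 0.108, adjusted 0.323 over 3 pairs) and a Spearman rho of 0.57 (permutation p = 0.0587, adjusted 0.176). Without the brains farthest from the median of odc1, which were those of double mutants 4 and 2, r was 0.87. The pair of odc1 and mat2al had r = 0.19 (permutation p = 0.549) and rho = 0.22 (permutation p = 0.5), and r = 0.04 without the same brains. The pair of mat2a and mat2al had r = 0.04 (permutation p = 0.911) and rho = 0.22 (permutation p = 0.485), and r = 0.00 without the farthest brains.

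The genes most like each member across livers were ranked by Pearson r of log2 CPM over the 11 livers of the 2-month fish, among 16174 genes. These livers share genotype and sex groups, and no test was made. For odc1 they were ube2d3 (r = 0.97), etf1 (r = 0.95), coq10a (r = 0.95), sart3 (r = 0.95) and prpf4b (r = 0.94). For mat2a they included manf (r = 0.96), txndc5 (r = 0.95), sec24a (r = 0.95) and smyd2a (r = 0.95). For mat2al they were camk1gb (r = 0.95), frmd4bb (r = 0.94), epdr1 (r = 0.93), aldoca (r = 0.93) and fmnl1b (r = 0.93). The level of manf, which encodes a secreted factor of the endoplasmic reticulum, ran from 11.8 to 87.6 CPM, and that of ube2d3, a ubiquitin-conjugating enzyme, from 33 to 94 CPM.

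Other genes of polyamine and methionine metabolism were followed from 9 lists with 65 genes besides the 3 described. The lists were chosen with earlier results of these livers known, so their p-values are not independent evidence. In double-mutant against WT livers, 1 of the 64 tested was higher and 0 were lower, against 0.662% of all genes. The gene that rose was mthfd2, an enzyme of mitochondrial folate metabolism, from 3.17 ± 0.758 CPM (SD, n = 4) to 8.64 ± 1.2 (SD, n = 4), which is 1.42 on the log2 scale (SE 0.203, edgeR adjusted p = 0.0359). It did not pass with the replicate number as a block, where 0 of all 16174 genes did, so that fit tells nothing particular of the lists. The count of higher list genes ran from 0 to 3 when 1 liver was left out. DESeq2 called 7 list genes higher and 1 lower, beside 621 and 571 of all 15947 genes. The median log2 fold change over the lists was 0.08, beside 0.00 over all 16174 genes.

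Among the partners of odc1 in polyamine synthesis, 0 of 8 passed in double-mutant against WT livers, with 3 at an unadjusted p under 0.05. Spermidine synthase (srm) was at 32.8 ± 11.8 CPM in double mutants (SD, n = 4) and 33.4 ± 3.21 in WT (SD, n = 4). Spermine synthase (sms) was at 14.1 ± 7.59 and 7.54 ± 1.32 CPM in the same groups, or 0.84 on the log2 scale (SE 0.268, edgeR adjusted p = 0.141). The decarboxylase of SAM (amd1) was at 127 ± 50.6 and 77.7 ± 33.6 CPM, a value of 0.75 (SE 0.394, edgeR adjusted p = 0.33).

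The antizyme inhibitor gene azin1, whose product keeps antizyme off ornithine decarboxylase, was at 6.61 ± 2.5 CPM in double mutants and 10.1 ± 1.69 in WT, a value of -0.66 (SE 0.222, edgeR adjusted p = 0.152). Its copy azin1b had a value of 0.11 (SE 0.216). The antizyme genes oaz1 and oaz1b had values of 0.04 (SE 0.161) and 0.38 (SE 0.139, edgeR adjusted p = 0.171), and sat1, which acetylates polyamines, 0.08 (SE 0.176). Mitochondrial arginase (arg2), named after its values were seen, ran from 0.289 to 97 CPM within double mutants, so its value of 4.54 (SE 1.73, edgeR adjusted p = 0.193) rests on a wide spread.

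Of the SAM and methionine cycle genes, 0 of 10 passed in the same comparison, with 2 at an unadjusted p under 0.05. The level of mat2aa ran from 7.98 to 13.1 CPM over all 11 livers, with a log2 fold change of -0.09 (SE 0.178) for double mutants against WT and 0.11 (SE 0.155) for males against females. The regulatory subunit mat2b had values of -0.14 (SE 0.148) and 0.35 (SE 0.126, edgeR adjusted p = 0.156). The liver form mat1a was at 936 ± 585 CPM in double mutants, 980 ± 142 in atm mutants and 551 ± 280 in WT (SD, n = 4, n = 3 and n = 4), with a value of 0.71 (SE 0.301, edgeR adjusted p = 0.232) for double mutants against WT. Between sexes mat1a gave 0.99 (SE 0.269, edgeR adjusted p = 0.077), higher in males, opposite in sign to mat2a and mat2al. The consumers of SAM and its product, gnmt and ahcy, had values of 0.19 (SE 0.27) and -0.11 (SE 0.231) for double mutants against WT.

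In the transsulfuration list, which leads from homocysteine to cysteine and glutathione, 7 of 7 genes had a positive value in double-mutant against WT livers, with a median of 0.58 beside 0.00 over all genes. None passed by edgeR, and 4 had an unadjusted p under 0.05, as 3154 of all 16174 genes did. Of the 7 genes, cbsb and csad were near the floor, at means of 0.328 and 1.04 CPM in double mutants and 0.253 and 0.634 CPM in WT. The WT females stood apart in these livers: the sum of 16 liver markers was 62395 to 65270 CPM in them, 174275 to 192427 CPM in WT males, 130276 to 158267 CPM in double-mutant females and 97406 to 234197 CPM in double-mutant males. The part of these markers in the list's values was not tested. The farthest was cth (1.39, SE 0.365, edgeR adjusted p = 0.0951), at 251 ± 127 against 95.8 ± 38.5 CPM (SD, n = 4 and n = 4). For gclc the value was 0.45 (SE 0.113, edgeR adjusted p = 0.0896), and its level was 18.2 to 22.2 CPM in double mutants and 13.1 to 14.6 CPM in WT, without overlap. Of all 16174 genes, 4.09% were likewise higher in every double mutant than in every WT liver. Both cth and gclc are named here after their values were seen. Another list, polyamine feedback and breakdown, also had positive values throughout in this comparison, in 6 of 6 genes with a median of 0.23.

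Between the sexes in liver, 4 of 64 other list genes passed, where 2.84% of all genes did. In males 1 list gene was higher and 3 were lower, beside 198 and 241 of 15456 genes. The amino acid transporter chain slc3a2 rose to 91.6 ± 55.7 CPM in males (SD, n = 5) from 36.8 ± 17 in females (SD, n = 6; 1.39, SE 0.285, edgeR adjusted p = 0.0349). Both copies of aldh1l2, a mitochondrial folate enzyme, were among the 3 lower in males. The gene listed as aldh1l2 had 1.72 ± 0.539 CPM in males (SD, n = 5) and 14.7 ± 8.71 in females (SD, n = 6; -3.02, SE 0.327, edgeR adjusted p = 0.00294). The copy LOC107395064, which has the same symbol, gave -2.65 (SE 0.341, edgeR adjusted p = 0.00553). Over the omissions of 1 liver, 0 to 4 list genes were called higher and 3 to 4 lower, and the count of 1 higher was found in 3 of 11 omissions.

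**Figure D4:**
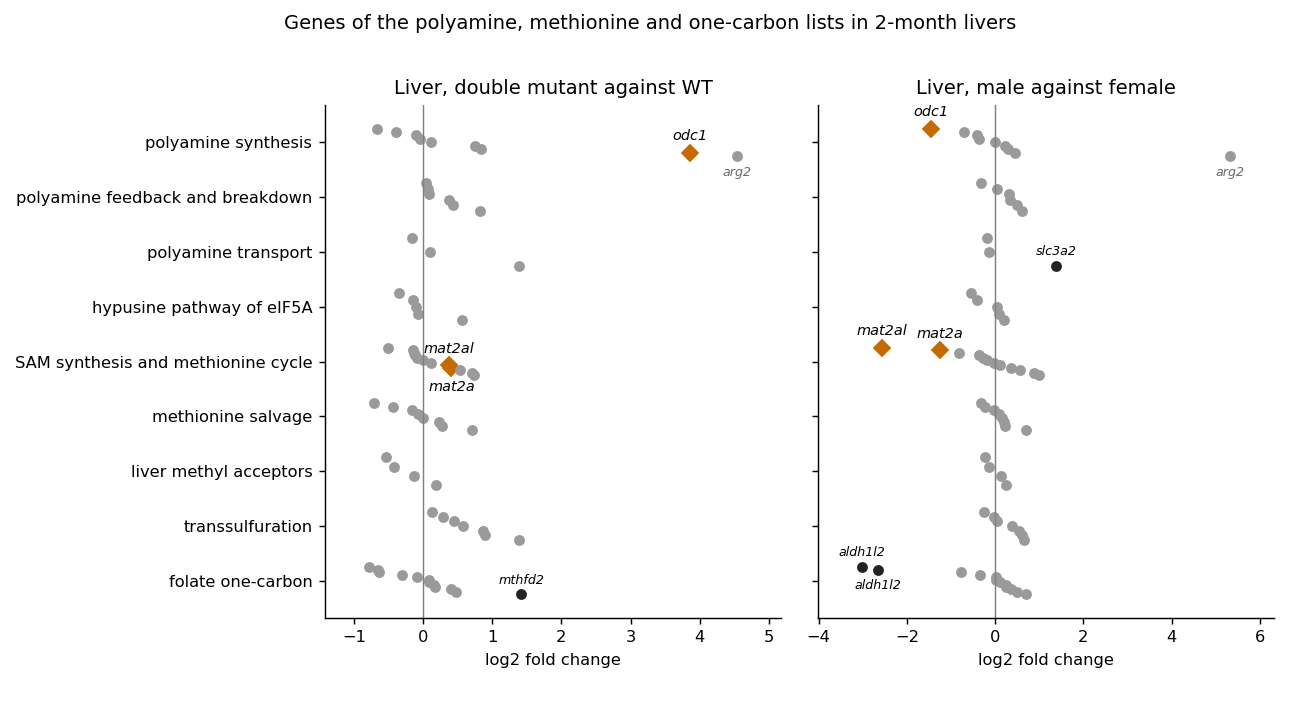
Log2 fold changes of the genes of 9 lists in 2-month livers, for double mutants against WT and males against females; grey points did not pass an adjusted p of 0.05, black points did and diamonds mark odc1, mat2a and mat2al; 1 list gene is not drawn. Most list genes lie near 0, odc1 lies at 3.86 in double mutants, and both aldh1l2 copies (-3.02 and -2.65) and mat2al (-2.57) have the lowest values in males.

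In atm mutants against WT livers 0 of 64 list genes passed by edgeR, as did 0 of all 16174 genes. By edgeR 10 list genes had an unadjusted p under 0.05, beside 1621 of all genes. DESeq2 called 1 list gene, beside 60 higher and 56 lower of 17292 genes. Between double mutants and atm mutants 0 list genes passed, beside 2 higher and 5 lower of all 16174 genes. By edgeR 6 list genes had an unadjusted p under 0.05, beside 1861 of all genes. DESeq2 called 2 list genes, beside 219 higher and 143 lower of 14154 genes. In 2-month brains 0 of 65 passed in each comparison of genotype or sex, by edgeR or DESeq2, with 4 to 6 at an unadjusted p under 0.05. Of all genes, 0 to 2 passed there by edgeR, and 1077 to 1783 had an unadjusted p under 0.05. Between WT brain and liver, 13 of 64 list genes were higher in brain and 32 lower, beside 8459 and 6585 of all 19757 genes, of which 76.1% passed. On plain totals this became 35 higher and 21 lower. Among those lower in brain were mat1a (-11.80, SE 0.364, edgeR adjusted p = 9.16e-08), ahcy (-5.07), gnmt (-4.57) and srm (-2.52). Among those higher were sms (1.68, SE 0.165, edgeR adjusted p = 2.91e-05) and mat2aa (0.65, SE 0.114, adjusted p = 0.000919).

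At 3 months mat2al could be followed in both experiments, on the scale of tables that hold part of the genes. In the blm experiment, WT male livers had 2.87, 4.13, 2.83 and 2.69 CPM, and Blm1 mutant male livers 3.78, 6.11 and 3.61 CPM. The ranges overlapped through WT liver L8. The log2 fold change was 0.53 (SE 0.264), with an adjusted p of 0.679 by edgeR, where 0% of 10374 genes passed, and p = 0.171 by the two-sided exact permutation test, which cannot go below 0.0571 here. Without mutant liver L29 the value was 0.24. The leukocyte markers summed to 69.6 to 443 CPM in mutants and 42.4 to 62.9 CPM in WT, and their part in the result was not tested. Of 38 list genes, 0 passed by edgeR or DESeq2, with 2 at an unadjusted p under 0.05. Of all 10374 genes, 835 had an unadjusted p under 0.05 by edgeR. DESeq2 called 204 higher and 16 lower of 11277 genes.

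In the cgas experiment, mat2al stood at 12.2 CPM in the WT female and 7.95 CPM in the WT male. Females labelled cGAS mutant had 4.29, 4.67 and 6.04 CPM and males 2.78 and 8.53 CPM. The mutant male at 8.53 CPM lay above the WT male, and the sexes overlapped in the mutants. On plain totals this mutant male was at 5.44 CPM. The mutants then ran from 2.23 to 6.82 CPM, below the WT female at 15.7 and the WT male at 10.1 CPM. The overlap of the genotypes thus depends on the scaling. On plain totals the median log2 fold change of all 13825 genes was itself low, at -0.52, beside 0.02 with TMM factors. The share of all genes without overlap on plain totals was not counted, and nothing is read from this separation. TMM factors were 0.638 for this mutant male, 1.29 for the WT female and 1.27 for the WT male. The log2 fold change was -0.93 (SE 0.453), with an adjusted p of 0.716 by edgeR, where 0.463% of 13825 genes passed, and p = 0.19 by the two-sided exact permutation test, whose smallest value here is 0.0952. Leaving out the WT female gave -0.49 and leaving out mutant male 3 gave -1.44. These brains differed in other ways. The protocol text speaks of livers, but 12 brain markers summed to 2508 to 4342 CPM, and 12 liver markers to 744 to 6741 CPM. The sum of 5 intestine markers was 502 CPM in the WT female, 158 CPM in the WT male and 13.7 to 370 CPM in the mutants, and their part in the result was not tested. Of 38 list genes, 0 passed by edgeR, with 3 at an unadjusted p under 0.05 and 2 by DESeq2. Of all 13825 genes, 1160 had an unadjusted p under 0.05 by edgeR. DESeq2 called 388 higher and 254 lower of 14843 genes.

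**Figure D5:**
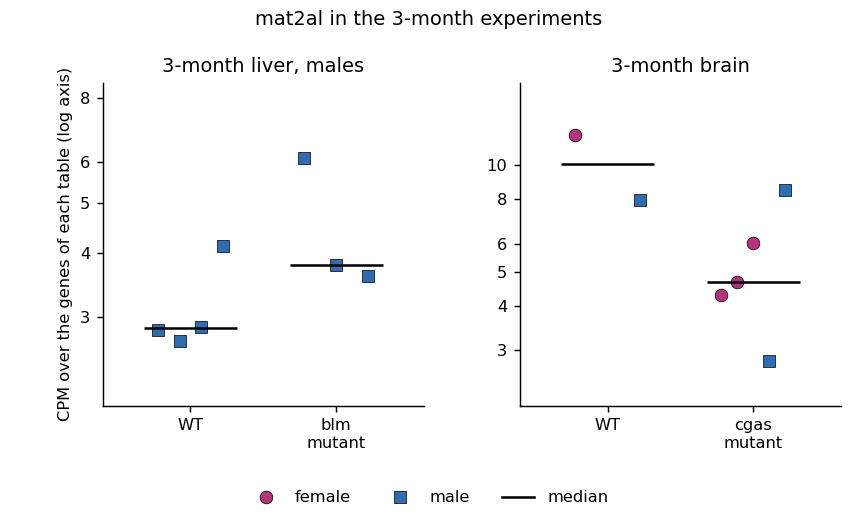
CPM of mat2al (log axis) over the genes of each 3-month table, in male livers of the blm experiment and in brains of the cgas experiment; circles are females, squares are males and lines are medians. On the TMM scale drawn here, mutant and WT ranges overlap in both, at 2.69 to 6.11 CPM in liver and 2.78 to 12.2 CPM in brain. On plain totals the brain ranges do not overlap, but there the median log2 fold change of all genes is -0.52.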

How the data were processed

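The deposited values are whole-number read counts per gene and library, not normalized by the authors, in 3 tables. Sequencing was single-end from a polyA mRNA kit, per the labels' protocols. The submitters' processing notes name FastQC 0.11.8, Trim Galore 0.6.4, cutadapt 3.4, STAR 2.7.6a and edgeR 3.32.1; build, strandedness and counting program are not given in the sources used here. The 3-month tables hold 16383 of the 25099 genes; 8 gene names turned into dates were restored. The atm mutant 3 liver and 1 empty brain library were not analysed here.

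Counts were tested with edgeR 4.0.16 in R 4.3.3 (TMM, filterByExpr, robust quasi-likelihood fits, Benjamini-Hochberg adjustment over all genes, threshold 0.05), the 3 genotypes together within each tissue with sex as covariate, or genotype for tests of sex. CPM for figures and groups are TMM-scaled; log2 CPM use a prior count of 2. SE come from the quasi-likelihood statistics. The 95% intervals are approximate, computed from the value and its SE with the normal distribution. With so few libraries they are narrower than the quasi-likelihood test implies. On data simulated from the 2-month liver comparison of the sexes, the fit called 66% of 100 genes changed by 1 on the log2 scale and 95% of those changed by 2. These shares were 27% and 89% for double-mutant against WT livers, and 91% and 99% for double-mutant against WT brains. They were 51% and 96% in the blm experiment, 0% and 36% in the cgas experiment, and 34% and 93% between WT tissues. Small changes could thus be missed, above all in the cgas experiment. The changed genes were drawn only from those with a mean above 5 CPM. In 2-month brains mat2al averaged 4.97 CPM in females and 4.39 CPM in males, and in 3-month livers 3.72 CPM. The shares for those brains and livers therefore do not cover mat2al. Each simulation changed 200 genes and held no other difference in expected level than library totals. With so many changed genes the adjusted threshold is easier to pass. In the measured double-mutant against WT brains, 1 of 20273 genes passed. The SE of odc1 there was 0.397, so the share of 91% is not read as that of odc1. Named genes are the 3 members, list genes past the threshold (at most 8 per comparison), fixed context genes and the 5 most alike; 2 genes that this rule names are counted but not reported here. The members and lists were chosen with earlier results of these data known. Symbols came from the files or from the assembly's gene table, which named 5241 of 14280 LOC identifiers.

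Same-numbered WT brain and liver samples share a sample number in their titles and were taken as 1 fish, which the titles do not state. Their deviations from group means had a mean correlation of 0.06, against -0.02 for other numbers. Alternatives were DESeq2 1.42.0, its size factors, plain totals, no filter, no covariate, blocks, the depth range and the omission of each library.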

Additional observations from a re-analysis of the deposited data

Results flagged for a closer look

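Over 30 groups of libraries examined for a value far from the others, 2 held one, and chance gives about 1 in 20. They were mat2a in the brain of double mutant 1, at 102 CPM, and mat2al in the 3-month WT liver L8, at 4.13 CPM. The effect of sex on mat2al differed between liver and brain by -2.35 on the log2 scale, by the test of that difference. That test was added after the values had been seen. It uses the livers that were in view when the genes were chosen, so it is not independent of that choice.

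In other comparisons all fish of one sex moved one way and all fish of the other sex the opposite way, and none of these differences was tested. For odc1 in brain, double mutants minus atm mutants gave 0.90 in females and -1.02 in males, as differences of mean log2 CPM. For mat2a in liver, atm mutants minus WT gave -2.49 in females and 0.49 in males. Double mutants minus WT gave -0.19 in females and 1.43 in males for mat2a, and the sign in females turns on plain totals. For mat2al in liver, double mutants minus atm mutants gave 0.10 in females and -0.70 in males, where plain totals make the male ranges overlap. Each sex and genotype holds 2 fish or fewer, so such patterns can arise by chance. The share of all genes with such a pattern was not counted, and nothing is read from these differences.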

How the results depend on the processing

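Over 46 results and 542 alternatives, 469 kept the direction and the side of the threshold, or the size of the count. The call of mat2al between liver sexes and the direction of odc1 in double-mutant livers were kept under every alternative run. With DESeq2, the sex values of odc1 (-1.44) and mat2a (-1.25) in liver and the WT tissue value of odc1 (0.89) passed. Among all genes, DESeq2 called 985 higher and 839 lower of 17740 between liver sexes. Between WT tissues it called 9637 and 6647 of 24205. DESeq2 or its size factors turned mat2a in double-mutant against WT brains (0.01) and between WT tissues (0.06 and 0.09). Plain totals gave 0.20, 2.76 and 1.99 for mat2al, odc1 and mat2a between WT tissues and 0.12 for mat2al in double-mutant against atm mutant livers, and no filter on low counts gave mat2a 0.02 between WT tissues. In double-mutant against atm mutant brains, odc1 turned to -0.04 and mat2a to -0.03 with the depth range, and the residual correlation of odc1 and mat2al over brains was -0.03. The causes were not tested.

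Replicate numbers recur across genotypes but mark different fish, and same-numbered libraries did not deviate together (mean correlation -0.33 to 0.12). With the replicate block, odc1 in double-mutant against atm mutant brains was -0.01 and odc1 between WT tissues 0.79. In double-mutant against WT livers 0 list genes were then called higher, as were 0 of all 16174 genes. WT livers 1, 2 and 4 have the opposite sex of the same-numbered atm mutant livers. List genes called higher in males in liver numbered 7 with DESeq2, 2 on plain totals and 0 without the covariate. Those higher in double-mutant against WT livers numbered 7 with DESeq2 (1 lower) and 6 on plain totals; DESeq2 gave 1 for atm mutants against WT, 2 for double mutants against atm mutants and 2 in cgas mutants. Between WT tissues, DESeq2 gave 20 higher and plain totals 35 higher and 21 lower. For sex in liver minus brain, 3 were higher, 1 with the fish as a block and 7 without double mutant 4.

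With each library left out in turn, brain values ranged from -0.02 to 0.49 for odc1 and -0.17 to 0.06 for mat2a in atm mutants, from -0.09 to 0.46 and -0.10 to 0.12 in double mutants, both against WT, from -0.22 to 0.34 for odc1 between the mutants, and from -0.41 to 0.06 and -0.03 to 0.13 between the sexes. Liver values ranged from -1.84 to -1.18 for odc1 and -1.86 to -0.96 for mat2a between the sexes, and from -0.30 to 0.05 for mat2al and 1.35 to 2.75 for mat2a between the mutants. WT tissue values ranged from -2.24 to -1.46 for mat2al, 0.42 to 1.04 for odc1 and -0.51 to 0.39 for mat2a. List genes called ranged from 0 to 4 (higher in male livers), 0 to 3 (higher in double-mutant livers) and 0 to 1 (lower there). At 40 to 137 counts per male liver, mat2al is the gene most limited by depth.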

Other observations

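The effect of sex in liver minus that in brain, a comparison added after values had been seen, was past the threshold for 6 of 65 list genes, 3 in each direction, where 4.23% of 21597 genes were (edgeR). Same-numbered brain and liver were taken as 1 fish. With the fish as a block 3 list genes were lower but 1 was higher, so at least 2 of the 3 higher calls below were lost. Those lower in males in liver relative to brain included aldh1l2 (-3.19, SE 0.313) and its copy LOC107395064 (-2.77, SE 0.326), which belong to folate metabolism. Higher were slc3a2 (1.29, SE 0.328), a chain of amino acid transporters, oaz1b (0.55, SE 0.146), an antizyme gene, and gclm (0.74, SE 0.204), a subunit of the first enzyme of glutathione synthesis.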
